A study of Mus musculus with 6 samples.

Results

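Solute carriers are membrane proteins that move ions, metals, vitamins and metabolites across the plasma membrane or the membranes of organelles. The genes described here are those whose symbol starts with Slc and a digit by the authors' deposited table, without the families Slc1, 2, 3, 5, 6, 7, 15, 16, 25, 36, 38 and 43, which carry mainly amino acids, sugars, monocarboxylates and mitochondrial metabolites. This rule, which uses no measured value, gave 151 of the 16701 listed genes, or 151 of the 261 listed Slc genes, in 36 families. Of these, 149 are annotated as protein-coding, 1 as an antisense RNA (Slc13a2os) and 1 as a processed pseudogene (Slc39a1-ps). Slc9a3r1, Slc9a3r2 and Slc4a1ap carry the prefix but encode scaffold or binding proteins, so 5 of the 151 symbols do not name a carrier.

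The series compared polyadenylated RNA of luminal epithelial cells of the mouse mammary gland in 3 libraries from Ocln knockout (Ocln-/-) mice and 3 from wild-type (WT) control mice, all from animals 7 weeks old. Ocln encodes occludin, a membrane protein of tight junctions. The strain, the sex, how the deletion was made, whether it reaches tissues outside the gland, how the cells were isolated and whether every library is 1 animal are not stated in the labels. Hence p-values measure only the spread between these libraries, which may be technical. Values per library were not used here, so levels are means over all 6 libraries in normalized counts (counts scaled for library depth), and fold changes and their standard errors (SE) are the authors' DESeq2 estimates for the knockout over the control.

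In a secretory epithelium, carriers are sorted to opposite faces of the cell. The basolateral cotransporter NKCC1 (Slc12a2) loads the cell with chloride, exchangers of the Slc4, Slc9 and Slc26 families set its pH and anion content, and zinc carriers of the Slc30 family fill secretory vesicles. In the lactating gland such carriers supply zinc, phosphate, choline and the sugars of lactose and glycans for milk. Tight junctions close the path between the cells, so that transport through the cells sets what crosses the sheet.

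The deleted gene and the cell type markers were checked first. By the authors' deposited table Ocln stood at a log2 fold change of -1.15 ± 0.16 (SE, adjusted DESeq2 p = 4.36e-09), which is a fold of 0.449. The 5 pan-luminal markers had mean levels of 31844 to 84084 normalized counts, the highest that of Krt18, against 52.4 to 665 for the 7 basal and myoepithelial markers. Markers of other cells were present at lower levels than the pan-luminal ones. They had at most 541 normalized counts among 12 macrophage and myeloid genes and 195 among 3 measured B cell genes. The highest values were 132 among 3 measured T cell genes and 90.2 among 5 measured erythroid genes. Fibroblast and endothelial markers reached 387 and 1402 normalized counts. The median log2 fold change was 0.46 over the 12 myeloid markers (1 rose, 0 fell), 0.43 over 6 luminal progenitor markers (1 rose, 1 fell) and -0.47 over 6 hormone-sensing luminal markers (0 passed). It was 1.54 over the 3 B cell markers and -1.28 over the 5 erythroid markers, with 0 passing in each. Of the markers that did not pass, the authors mark Hba-a1 Down and S100a9 Up. Of the 7 basal and myoepithelial markers 1 fell, Oxtr at -1.55 ± 0.38 (adjusted DESeq2 p = 0.00733) with a list median of -0.16, and of the 6 fibroblast markers 1 fell, Dcn at -1.36 ± 0.35 (adjusted p = 0.0134) with a list median of 0.22, by the authors' deposited table. Of the T cell, endothelial, pan-luminal and adipocyte markers 0 passed, with medians of 0.34, 0.04, -0.06 and -0.14, the last from 1 measured gene. The highest marker of each of these other cell types was counted above 4 of the 5 carrier genes that rose. Those 4, described below, had mean levels of 41.5 to 66.3 normalized counts, and which cells their reads came from was not tested. The part that the marker differences play in the results on carriers was not tested. In bulk libraries, a change in the number of cells that express a gene cannot be told apart from a change in RNA per cell.

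Of the 151 carrier genes, 5 rose and 0 fell in the knockout (DESeq2 p adjusted over all genes, under 0.05). Over all listed genes 0.808 percent rose and 0.275 percent fell, against 3.31 percent and 0 percent of the carrier genes. The 5 genes were Slc14a1, Slc46a2, Slc22a23, Slc39a4 and Slc26a9, and they belong to 5 different families. At an unadjusted p under 0.05, 13 carrier genes were higher and 3 lower, or 8.61 and 1.99 percent, beside 5.23 and 3.83 percent of all genes. Past a log2 fold change of 1 in size there were 6 carrier genes, all of them higher. Over all 151 genes, positive and negative values were near equal in number. The median log2 fold change of the 151 genes was 0.00, that of all genes -0.01, and 76 carrier genes (50.3 percent) had a positive value against 48.8 percent of all genes.

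**Figure D1:**
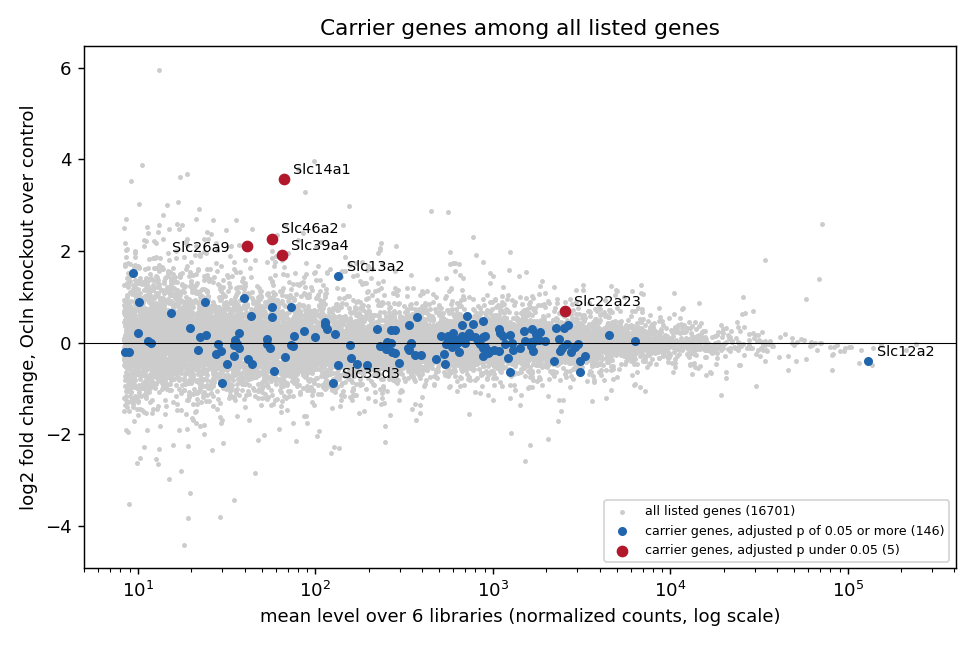
Log2 fold change (knockout over control) against mean level in normalized counts on a log axis, for all 16701 listed genes in grey and the 151 carrier genes in blue, or in red where the adjusted p was under 0.05. Of the 5 red points, 4 lie at mean levels of 41.5 to 66.3 normalized counts and Slc22a23 at 2541, and Slc12a2 stands far to the right at 130705.

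Slc14a1 had the highest fold change of the carrier genes. It encodes UT-B, a urea channel known from red blood cells and from the vessels of the renal medulla. By the authors' deposited table its log2 fold change was 3.56 ± 0.58 (SE, adjusted DESeq2 p = 1.13e-06) with 66.3 normalized counts on average, and it ranked 15 of all genes by p-value. Set against the control this is 11.8-fold, and the 95 percent interval ran from 5.34 to 26. A mean level and a fold change together imply group means, which for Slc14a1 come to about 122 normalized counts in the knockout and 10.4 in the control. Such implied means assume equal weight for each library and show no spread, and the one for the control is close to the lowest mean level listed for any gene, 8.35. The 5 measured erythroid markers all had negative log2 fold changes, and 0 passed. The 5 endothelial markers all had positive ones, with a median of 0.04, and 0 passed. Which cells the Slc14a1 reads came from was not tested. On chromosome 18 the gene occupies the minus strand from 78100091 to 78142119 on GRCm38, and no other annotated gene overlaps it.

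Slc46a2 rose next in size. It encodes a relative of the folate carrier Slc46a1, found in thymic stroma and reported to move fragments of bacterial cell walls. Its log2 fold change by the authors' deposited table was 2.27 ± 0.45 (SE, adjusted DESeq2 p = 0.000186) at 56.8 normalized counts. The fold was 4.81, with a 95 percent interval of 2.62 to 8.84, and the implied means were about 94.1 normalized counts in the knockout and 19.6 in the control.

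Slc26a9, a chloride channel and anion exchanger of airway and gastric epithelium, reached a log2 fold change of 2.10 ± 0.56 by the authors' deposited table (SE, adjusted DESeq2 p = 0.0241) at 41.5 normalized counts. Its fold of 4.29 had a 95 percent interval of 2 to 9.23, and the implied means were about 67.4 in the knockout and 15.7 in the control. Slc39a4 encodes ZIP4, the zinc importer of the gut whose loss causes the human zinc deficiency acrodermatitis enteropathica. The authors' deposited table lists it at 1.91 ± 0.48 (SE, adjusted DESeq2 p = 0.0122), a fold of 3.76 with an interval of 1.95 to 7.26, at 65.3 normalized counts. On chromosome 15 it occupies 76612383 to 76617384 (GRCm38, minus strand), and no other annotated gene overlaps it or Slc26a9. Both calls depended on the setting. Slc26a9 lost its call with scores scaled down for inflation (adjusted p = 0.0746) and both lost it under the Benjamini-Yekutieli adjustment (0.248 for Slc26a9 and 0.126 for Slc39a4).

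Slc22a23, an organic ion carrier relative with no established substrate, was the 1 called gene that is deeply counted. By the authors' deposited table the log2 fold change came to 0.69 ± 0.16 (SE, adjusted DESeq2 p = 0.00333) at 2541 normalized counts. The fold was 1.61 (95 percent interval 1.3 to 2), with implied means of about 3137 in the knockout and 1945 in the control. The annotated genes Gm24530 and Gm47086, a miscellaneous RNA and a processed pseudogene, overlap it. Its change was the smallest of the 5, and the authors' deposited table marks it Stable. The other 4 carry the authors' mark Up, together with Slc13a2, so that 5 carrier genes are marked Up and 0 Down, beside 1.8 percent and 0.988 percent of all genes.

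Low counts were common among the called carriers. Among the 44 carrier genes with a mean level under 100, 4 rose, or 9.09 percent, beside 0.357 percent of all genes at such levels. Among the 107 at a higher level 1 rose, or 0.935 percent, beside 1 percent of all genes there. The split at 100 was chosen after the values were seen.

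The 250 bases before the start are shown for 3 of the 5 genes that rose, from RefSeq promoters on GRCm38.p6, 5′ to 3′ on the strand of the gene, with any TATAAA on either strand in capitals. They are chr4:59915057-59915306 (minus strand) for Slc46a2, chr13:34345219-34345468 (minus strand) for Slc22a23 and chr1:131743772-131744021 (plus strand) for Slc26a9.
Slc46a2: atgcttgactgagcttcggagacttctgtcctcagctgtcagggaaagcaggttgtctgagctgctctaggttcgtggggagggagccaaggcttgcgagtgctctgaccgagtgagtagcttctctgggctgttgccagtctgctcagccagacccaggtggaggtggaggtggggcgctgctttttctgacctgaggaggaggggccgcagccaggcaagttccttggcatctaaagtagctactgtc
Slc22a23: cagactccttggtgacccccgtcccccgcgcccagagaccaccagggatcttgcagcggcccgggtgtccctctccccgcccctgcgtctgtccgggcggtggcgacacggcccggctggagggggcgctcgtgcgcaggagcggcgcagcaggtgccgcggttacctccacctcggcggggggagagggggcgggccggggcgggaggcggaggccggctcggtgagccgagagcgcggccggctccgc
Slc26a9: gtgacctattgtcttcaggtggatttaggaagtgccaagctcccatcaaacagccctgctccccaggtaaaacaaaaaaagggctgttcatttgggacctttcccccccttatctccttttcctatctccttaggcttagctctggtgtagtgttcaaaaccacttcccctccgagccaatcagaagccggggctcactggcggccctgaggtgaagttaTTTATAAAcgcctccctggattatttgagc
In Slc26a9, TATAAA stood 28 to 23 bases before the start and its reverse complement overlapped it at 30 to 25 bases. TATAAA was found in this window in 12.4 percent of 32851 promoters and in 7.74 percent of the 155 promoters of the 119 carrier genes in the table. TTCNNNGAA, the site that STAT factors bind, was in 0 of the 3 windows, in 7.02 percent of all promoters and in 4.52 percent of those of the carrier genes. The 3 windows differed in base composition. Guanine and cytosine made up 78.4 percent of the Slc22a23 window, with 32 CpG dinucleotides, against 58.4 percent and 6 in Slc46a2 and 50 percent and 4 in Slc26a9. The medians over all promoters were 52.4 percent and 6, and over those of the carrier genes 61.2 percent and 13.

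**Figure D2:**
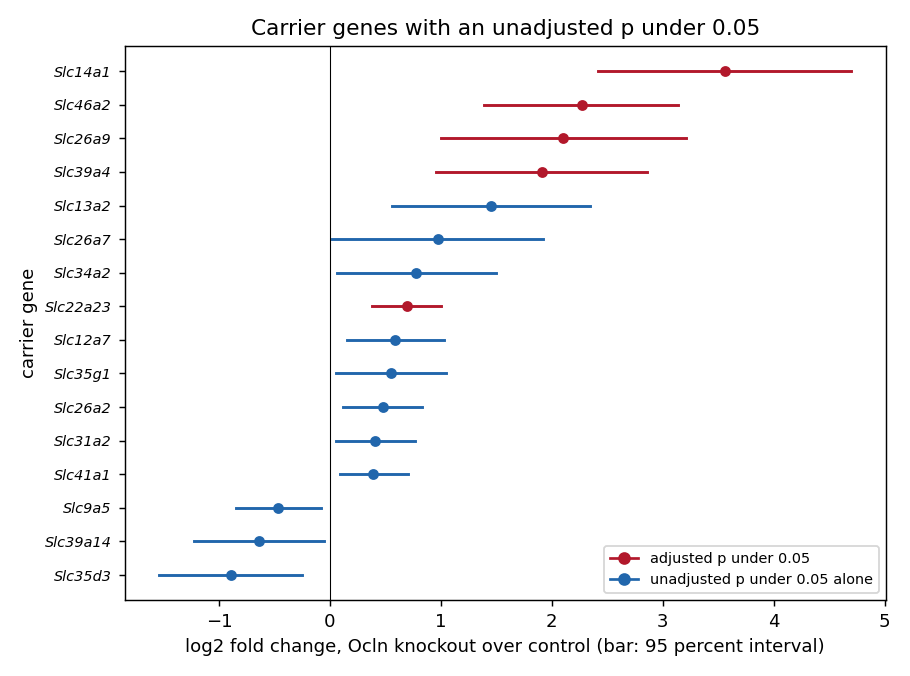
Log2 fold change (knockout over control) with its 95 percent interval for the 16 carrier genes with an unadjusted p under 0.05, in red where the adjusted p was under 0.05 and in blue otherwise. The 4 highest points are Slc14a1, Slc46a2, Slc26a9 and Slc39a4, and the 3 lowest, Slc35d3, Slc39a14 and Slc9a5, did not pass the adjustment.

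Carriers of chloride, bicarbonate, sodium and protons (families Slc4, 9, 12 and 26) numbered 32, of which Slc26a9 rose and 0 fell. Their median log2 fold change was 0.06. Slc12a2 (NKCC1), which drives chloride entry across the basolateral membrane, was counted far above every other carrier gene. Its mean level of 130705 normalized counts ranked 6 among all 16701 genes and made up 52.5 percent of the counts of all 151 carrier genes. Per kilobase of its longest transcript it had 20047 normalized counts, against 2358 for the next of the 151 genes, the scaffold gene Slc9a3r1. By the authors' deposited table its log2 fold change was -0.40 ± 0.30 (SE, adjusted DESeq2 p = 0.788). The 95 percent interval of the fold ran from 0.502 to 1.15, which holds both no change and a fall to about that lower bound. Slc9a3r1, which encodes the scaffold NHERF1 of apical membranes, stood at 0.16 ± 0.17 by the authors' deposited table (adjusted p = 0.888).

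Within this group the Slc26 anion exchangers all had positive values, 7 of 7, with a median of 0.38. The Slc4 bicarbonate carriers, counted with the binding protein gene Slc4a1ap, were mixed (4 of 8 positive). So were the Slc9 sodium-proton exchangers and their scaffolds (5 of 10) and the Slc12 cation-chloride cotransporters (3 of 7). The Slc26 family was singled out after its values were seen, and 1 of its 7 genes passed. Slc26a2, which supplies sulfate for sulfated glycans, had 0.48 ± 0.18 (adjusted DESeq2 p = 0.276) and Slc26a7, an anion exchanger of kidney, stomach and thyroid, 0.97 ± 0.48 (adjusted p = 0.53) by the authors' deposited table. Slc12a7, a potassium-chloride cotransporter, had 0.59 ± 0.23 (adjusted p = 0.276) and the sodium-proton exchanger gene Slc9a5 -0.47 ± 0.19 (adjusted p = 0.375), per the authors' deposited table. None of these 4 passed.

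From a list drawn up with earlier results of these data known, 18 genes of salt transport and its kinases outside the Slc families were measured. Of these 1 rose and 0 fell, beside 0.808 and 0.275 percent of all genes. It was Car2, the gene of a carbonic anhydrase that makes bicarbonate and protons, at 1.09 ± 0.28 by the authors' deposited table (SE, adjusted DESeq2 p = 0.014), a fold of 2.13 with a 95 percent interval of 1.46 to 3.11. The calcium-activated chloride channel gene Ano1 (-0.07 ± 0.18 by the authors' deposited table), among the most deeply counted of that list, did not pass.

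Zinc and manganese carriers numbered 20, of which Slc39a4 rose and 0 fell, with a median log2 fold change of -0.02. The 7 Slc30 genes, most of whose proteins move zinc out of the cytosol, had a median of 0.03. The 13 Slc39 symbols, importer genes and the pseudogene Slc39a1-ps, had a median of -0.09, 9 of them negative. The most deeply counted, Slc39a14 (ZIP14, an importer of zinc, manganese and iron), had -0.64 ± 0.30 by the authors' deposited table (SE, adjusted DESeq2 p = 0.49) at 3088 normalized counts. Slc39a1 came next, at -0.09 ± 0.16 by the authors' deposited table and shares sequence with its pseudogene Slc39a1-ps (-0.02 ± 0.40), so reads of this pair may be split between them. The zinc carriers of milk did not pass. Slc30a4, mutated in the lethal milk mouse, stood at -0.40 ± 0.24 (adjusted DESeq2 p = 0.653, 2214 normalized counts) and Slc30a2, mutated in human mothers with low milk zinc, at 0.77 ± 0.45 (adjusted p = 0.646, 73.1 normalized counts) by the authors' deposited table. Slc39a8, another importer of zinc and manganese, was listed at -0.46 ± 0.40 by the authors' deposited table.

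Among the zinc binding and sensing genes 3 of 5 were measured and 0 passed, although 2 had lower levels at an unadjusted p under 0.05. Mt1, a metallothionein gene that is induced by zinc, had -0.80 ± 0.26 by the authors' deposited table (SE, adjusted DESeq2 p = 0.108) and Mt2 -1.34 ± 0.62 (adjusted p = 0.479) at only 16.7 normalized counts. The authors mark Mt1 Stable and Mt2 Down. Mtf1, which encodes the zinc sensor that drives metallothionein genes, had 0.06 ± 0.19 by the authors' deposited table.

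Slc30a5, which loads zinc into the early secretory pathway, is the 1 carrier gene within 5 Mb of Ocln. It lies on chromosome 13, from 100802648 to 100833427 on GRCm38, 250 kilobases from Ocln. Its log2 fold change was 0.03 ± 0.17 by the authors' deposited table (SE, adjusted DESeq2 p = 0.987), a fold of 1.02 with a 95 percent interval of 0.809 to 1.29.

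Of 10 carriers of iron, copper, magnesium and heme, 0 rose and 0 fell, and the median log2 fold change was 0.01. At an unadjusted p under 0.05, 2 were higher. These were Slc41a1, a magnesium carrier, at 0.39 ± 0.15 (adjusted DESeq2 p = 0.301) and Slc31a2, a copper carrier of internal membranes, at 0.41 ± 0.18 (adjusted p = 0.448) by the authors' deposited table. The copper importer gene Slc31a1 stood at 0.08 ± 0.15 and the iron importer gene Slc11a2 at 0.22 ± 0.17, per the authors' deposited table. The iron exporter ferroportin (Slc40a1), which macrophages also make, had -0.35 ± 0.26, and Slc11a1, the metal carrier of phagocyte vesicles, -0.03 ± 0.42 at 36.5 normalized counts by the authors' deposited table.

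Outside the Slc families, 2 of 23 measured genes of iron and heme handling rose and 0 fell, beside 0.808 and 0.275 percent of all genes. The list was drawn up with earlier results of these data known, so this count is not a test of the list. The 2 were Ltf and Trf, whose proteins bind iron in milk and plasma. They stood at 2.59 ± 0.29 and 0.99 ± 0.26 by the authors' deposited table (adjusted DESeq2 p = 1.15e-15 and 0.0215), with the authors' marks Up and Stable. Ltf is also 1 of the 6 luminal progenitor markers. At an unadjusted p under 0.05, 4 of the 23 genes were higher and 2 lower. Cybrd1, named after its values were seen, had the largest log2 fold change of the list, 3.29 ± 1.26 (adjusted p = 0.276). The authors mark it Up. Of 6 copper handling genes 0 passed, 6 had negative values, and the median was -0.31, with the copper chaperone genes Atox1 at -0.16 ± 0.18 and Ccs at -0.24 ± 0.17 by the authors' deposited table.

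The 5 calcium exchanger genes of families Slc8 and Slc24 held 0 calls and had a median of -0.04. The mitochondrial sodium-calcium exchanger gene Slc8b1 stood at -0.01 ± 0.21 and Slc24a3 at -0.47 ± 0.31 by the authors' deposited table. Among 12 measured genes of calcium pumps and entry, 1 rose and 0 fell, beside 0.808 and 0.275 percent of all genes. This list was also drawn up with earlier results of these data known. Atp2b1, which encodes a plasma membrane calcium pump, reached a log2 fold change of 1.26 ± 0.24 by the authors' deposited table (SE, adjusted DESeq2 p = 0.000131) at 6851 normalized counts. This is 2.39-fold over the control, with an interval from 1.72 to 3.33, and implied means of about 9664 in the knockout and 4039 in the control. Atp2a2, the calcium pump of the endoplasmic reticulum, stood at 0.05 ± 0.15 by the authors' deposited table.

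Carriers of phosphate, sulfate and carboxylates (families Slc13, 20, 34 and 37) numbered 11, of which 0 passed, 8 had positive values and the median was 0.14. Slc13a2, the sodium-dicarboxylate cotransporter of kidney and gut that takes up citrate and succinate, was the nearest to the threshold among all carrier genes that missed it. It had 1.45 ± 0.45 by the authors' deposited table (SE, adjusted DESeq2 p = 0.0893) at 135 normalized counts, a fold of 2.73 with a 95 percent interval of 1.47 to 5.05. Its antisense RNA Slc13a2os had 1.51 ± 0.94 at 9.46 normalized counts by the authors' deposited table. Both overlap on chromosome 11, Slc13a2 from 78397087 to 78422217 on the minus strand and Slc13a2os from 78394485 to 78405657 on the plus strand. Whether reads were counted by strand is not given in the sources used here, so reads from the stretch they share may not have been told apart.

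Slc34a2 encodes the apical sodium-phosphate cotransporter of lung, gut and lactating mammary epithelium. It had 0.78 ± 0.37 at 57.4 normalized counts by the authors' deposited table (adjusted DESeq2 p = 0.49), and an annotated antisense gene, Gm17182, overlaps it. The broadly used phosphate importer gene Slc20a1 stood at 0.31 ± 0.29 and Slc37a3 at -0.15 ± 0.17, per the authors' deposited table. Slc37a2, a sugar phosphate carrier known from macrophages, was listed at 0.12 ± 0.50 by the authors' deposited table, with 22.5 normalized counts.

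Genes of the Slc35 family, which includes the nucleotide sugar carriers that feed glycosylation in the Golgi, numbered 24, the largest family among the carriers. The family was taken whole, and the solute of each member was not checked. Of these, 0 passed, 12 had positive and 12 negative values, and the median was -0.01. Slc35a3 (-0.03 ± 0.16) and Slc35f5 (-0.19 ± 0.17) were the most deeply counted by the authors' deposited table. Slc35a2, which brings UDP-galactose into the Golgi where lactose is made, had -0.03 ± 0.17 by the authors' deposited table, with a 95 percent interval of the fold from 0.779 to 1.23. The lowest log2 fold change of all 151 carrier genes was that of Slc35d3, which mice need for platelet dense granules, at -0.89 ± 0.33 by the authors' deposited table (SE, adjusted DESeq2 p = 0.236). Slc35g1 had 0.55 ± 0.25 (adjusted p = 0.482), per the authors' deposited table. Of 14 measured genes of nucleotide sugar synthesis 1 rose and 0 fell, beside 0.808 and 0.275 percent of all genes. That list, too, was drawn up with earlier results of these data known. Cmas, which activates sialic acid to CMP-sialic acid, had 0.86 ± 0.22 by the authors' deposited table (SE, adjusted DESeq2 p = 0.0134), a fold of 1.82 with an interval of 1.35 to 2.45. The authors mark Cmas Stable. Slc35a1, which carries CMP-sialic acid into the Golgi, was named after its values were seen and stood at -0.18 ± 0.18 by the authors' deposited table (adjusted p = 0.863). Papss1, which makes the sulfate donor for the Golgi, had -0.15 ± 0.16 by the authors' deposited table.

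**Figure D3:**
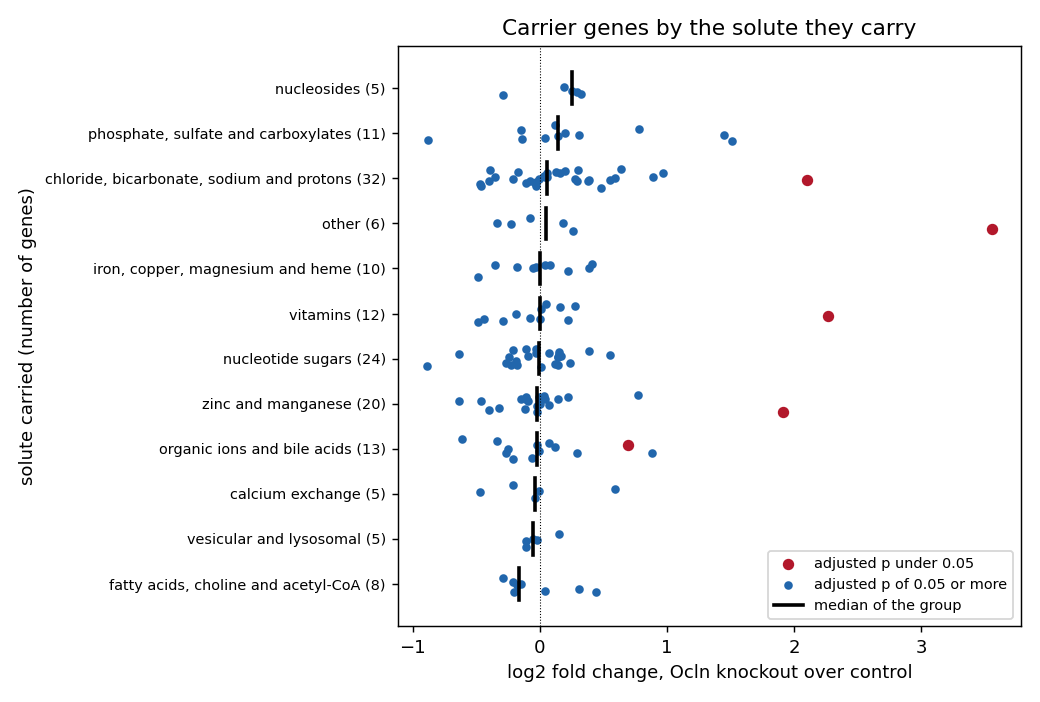
Log2 fold change (knockout over control) of each of the 151 carrier genes, 1 point a gene, in 12 groups by the solute that the family carries, ordered by the group median (black bar). Red points are the 5 genes with an adjusted p under 0.05, each in another group, and all group medians lie between -0.17 and 0.25.

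Organic ion and bile acid carriers (families Slc10 and Slc22) numbered 13, of which Slc22a23 rose and 0 fell, with a median of -0.02. Slc22a17, a receptor of lipocalin-2, had -0.21 ± 0.17 and the carnitine importer gene Slc22a5 0.07 ± 0.18 by the authors' deposited table. Of 12 genes in the families of vitamin carriers (Slc19, 23, 46 and 52), Slc46a2 rose and 0 fell. Slc46a2 itself is not known to carry a vitamin. The vitamin C importer gene Slc23a2 stood at 0.22 ± 0.17 and the thiamine importer gene Slc19a2 at 0.05 ± 0.21 by the authors' deposited table. Of 10 folate cycle genes 0 passed and 1 was lower at an unadjusted p under 0.05, with Shmt1 at 0.16 ± 0.20 by the authors' deposited table.

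Carriers of fatty acids, choline and acetyl-CoA (families Slc27, 33 and 44) numbered 8, with 0 calls and a median of -0.17. Slc44a1, a choline importer, was the most precisely measured carrier gene, at 0.04 ± 0.13 by the authors' deposited table and a fold interval of 0.857 to 1.23. Slc44a2 had -0.21 ± 0.15 and the fatty acid carrier gene Slc27a1, known from adipocytes and muscle, 0.31 ± 0.21, per the authors' deposited table. Of 7 genes of choline and phospholipid synthesis 0 passed, with Chka at 0.30 ± 0.29 and Chpt1 at 0.11 ± 0.17 by the authors' deposited table.

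The 5 nucleoside carriers (median 0.25) and the 5 vesicular and lysosomal carriers (median -0.05) held 0 calls. Slc29a1 (-0.29 ± 0.19), an equilibrative nucleoside carrier gene, Slc17a5 (0.15 ± 0.18), the lysosomal sialic acid exporter gene, and Slc17a9 (-0.02 ± 0.23), the vesicular nucleotide carrier gene, did not pass by the authors' deposited table. Among the 6 genes of other families, Slc45a3 (-0.08 ± 0.18) and Slc66a2 (0.26 ± 0.19) were the most deeply counted by the authors' deposited table, and Slc14a1 was the 1 that rose.

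Precision set what could be seen. The 95 percent interval of the fold lay within 2-fold of the control level in either direction for 105 of the 151 carrier genes (69.5 percent), beside 69.0 percent of all genes. For the other 46, a change of 2-fold or more was inside the interval. The median SE was 0.19 for the 107 carrier genes with a mean level of 100 or more and 0.47 for the 44 below it. Slc28a3, a concentrative nucleoside importer, and Slc35f3, a relative of the nucleotide sugar carriers, stood apart from genes of like level. Slc28a3 had 0.19 ± 0.75 at 1752 normalized counts and Slc35f3 -0.64 ± 0.66 at 1252 by the authors' deposited table. These SEs were 4.37 and 3.82 times the median SE of genes in the same of 100 bins of mean level. They were the only 2 carrier genes over 2 times that median (1.32 percent), beside 1.63 percent of all genes. The SEs of the 6 hormone-sensing luminal markers were uneven by the authors' deposited table, with 0.26 for Prlr, 0.30 for Pgr, 0.31 for Foxa1, 0.58 for Esr1, 0.68 for Cited1 and 0.72 for Ly6a. Whether any of these genes vary together with Slc28a3 or Slc35f3 across libraries was not tested.

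**Figure D4:**
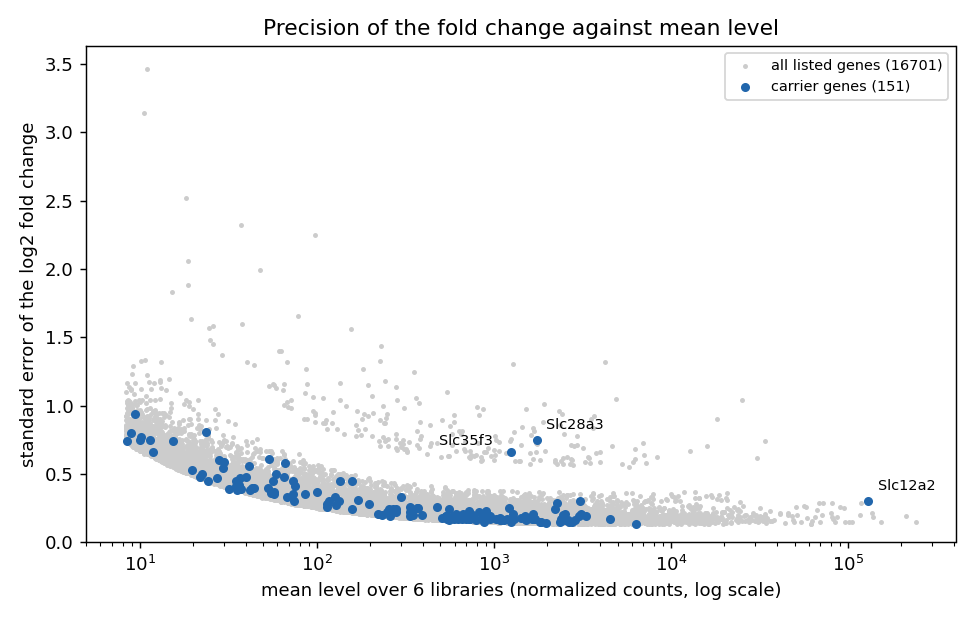
SE of the log2 fold change against mean level in normalized counts on a log axis, for all 16701 listed genes in grey and the 151 carrier genes in blue. Slc28a3 and Slc35f3 lie in a sparse band above the main cloud, at SEs of 0.75 and 0.66.

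Beside the other Slc genes, the 69 carriers of amino acids, sugars and monocarboxylates held 1 rise and 2 falls, or 1.45 and 2.9 percent. The shares over all genes were 0.808 and 0.275 percent. The median log2 fold change of the 69 was 0.09. At an unadjusted p under 0.05, 13 percent of these 69 were higher and 4.35 percent lower, against 8.61 and 1.99 percent of the 151 carrier genes. The 41 Slc25 mitochondrial carriers held 0 calls, with a median of -0.11 and 12 positive values. Of them 2.44 percent were higher and 4.88 percent lower at an unadjusted p under 0.05. The difference between these sets was not tested.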

How the data were processed

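The data were the authors' deposited table of 1 comparison, 3 Ocln knockout against 3 control libraries, with 16701 genes named by symbol. Per the submitters' processing notes, DESeq2 (version not given) and the mouse build mm10 were used; the sources used here name no aligner, counter, annotation or model. Columns, per the file headers of the authors, are a mean level (a signal, normalized counts averaged over libraries), the log2 fold change and its SE, the Wald score, p-value and adjusted p-value, and another column with the call Up, Down or Stable. The direction was taken from the table's name. Wald scores matched fold change divided by SE within 2.6e-07. Genes below a mean level of 8.35 were not analysed here, and the depth of each library is unknown.

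No test per gene was added: the authors' adjusted p over all genes, under 0.05, is the call. Computed here (Python 3.11.15, pandas 2.3.3, SciPy 1.17.1) were counts and medians by group, folds with 95 percent intervals (1.96 SE either side), implied group means, and the adjusted p under other settings, whose code was tested on simulated data. Group means follow from the mean level and fold with equal weight per library. Positions and longest transcripts came from GENCODE M21 (GRCm38), matched for 16437 genes and all 151 members, 3 by an older symbol.

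Members and lists were chosen with earlier results of these data known. Named are Ocln, all members with an unadjusted p under 0.05, the 2 most deeply counted of each solute group and partner list, called partner genes (up to 4 a list), the member within 5 Mb of Ocln, and members known from milk or from other cells (Slc4a1 was not analysed here); others are said to be chosen after their values were seen. Some genes that this rule names are not reported here. The members named for a wide SE, Slc28a3 and Slc35f3, were chosen so too. The TATAAA and TTCNNNGAA motifs were also chosen after the data were seen.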

Additional observations from a re-analysis of the deposited data

How the results depend on the processing

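The count of 5 carrier genes that rose was 5 without genes within 5 Mb of Ocln, 5 with the medians of 20 bins of transcript length subtracted from the scores, and 4 with genes at a mean level of at least 50 (Slc26a9 left the test), with scores scaled down for an inflation factor of 1.18 (Slc26a9 lost) and with a minimum log2 change of 1 in size (Slc22a23 lost). It was 3 under the Benjamini-Yekutieli adjustment and 3 at an adjusted p under 0.01, in both cases Slc14a1, Slc46a2 and Slc22a23. The authors' own calls give 5 carrier genes up, with Slc13a2 in place of Slc22a23. Carrier genes that fell numbered 0 under each of these settings, and at an unadjusted DESeq2 p under 0.05 there were 3 lower. Over all genes the calls were 181 as deposited, 119 with scores divided by the root of their inflation, 86 under Benjamini-Yekutieli, 107 at 0.01, 117 with the minimum fold and 466 by the authors' calls. The authors' calls include genes with an adjusted DESeq2 p over 0.05, such as Cybrd1 (0.276) and Mt2 (0.479). Hence the 466 and the 181 were not called at a like threshold. Among genes outside the Slc families, Car2 (adjusted p = 0.144), Cmas (0.138) and Trf (0.222) lost their calls under Benjamini-Yekutieli, and Trf (0.0679) also with scores divided by the root of their inflation. Group medians moved by less than the median SE of their genes when genes under a mean level of 50 were left out. That SE belongs to single genes, so it is a wide limit for a median. The calcium exchanger median went from -0.04 over 5 genes to -0.24 over 2. No paired analysis was possible because the table holds no values per library, and for the same reason no library could be left out in turn.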
